A study of Mus musculus with 136 samples.

Results

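The HoxD cluster of the mouse holds 9 Hox genes on chromosome 2 (Hoxd1, Hoxd3, Hoxd4, Hoxd8, Hoxd9, Hoxd10, Hoxd11, Hoxd12 and Hoxd13) and lies beside Evx2, a homeobox gene of the even-skipped family. These 10 genes, of 21887 protein-coding genes in the annotation, were described through every peak or region of the 10 deposited lists that touched a gene body with 2500 bp on both sides (the gene window). They were chosen by the presence of listed SUZ12 peaks, since the lists of both MCM2-2A clones held a stretch from Hoxd4 into Hoxd3 that the WT list lacked, and so the SUZ12 contrast between the genotypes is a description here and carries no test. Of the 136 samples of the series, 26 lay behind the lists. All were untreated E14JU mouse embryonic stem cells of strain 129/Ola, grown in serum with leukaemia inhibitory factor, and each line was 1 clone. MCM2-2A clones 439 and 442 carried 2 substitutions in the histone-binding domain of MCM2, a subunit of the replicative helicase, and WT clone 410 was the counterpart with unmutated MCM2. SUZ12 was measured in crosslinked, sonicated chromatin of these 3 clones (3 replicates each), while H3K27me3, H3K4me3 and H3K9me3 were measured in MNase-digested native chromatin of WT clone 410 in a rescue experiment (3 replicates) and, with H3K27ac, in an original experiment (2 replicates).

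Hox genes encode homeodomain transcription factors that give cells along the body axis their positional identity, and the order of the genes on the chromosome follows the order of their expression domains. In embryonic stem cells the clusters are classical targets of Polycomb repressive complex 2 (PRC2), of which SUZ12 is a core subunit and whose product is H3K27me3. H3K4me3 marks promoters, and its presence together with H3K27me3 is known as bivalency.

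Each list is the authors' combination of replicates, which leaves 1 value per list with no replicate error, and the read depth is unknown. The fold enrichment of a peak is its signal over local background as the authors' peak caller gave it, and ranks by fold are within a list (1 is the strongest). The lists held 7571 SUZ12 peaks in MCM2-2A clone 439, 7840 in MCM2-2A clone 442 and 6298 in WT clone 410. In WT chromatin all 8 stem cell markers listed had H3K4me3 and H3K27ac in their windows, against 78.1% to 79.4% and 66.1% of all genes. Their H3K27ac folds were between 10.5 at Klf4 and 40.6 at Dppa5a. Of the markers of other cells, 1 of 7 fibroblast genes (Thy1, 5.68-fold) and 5 of 6 extraembryonic endoderm genes had H3K27ac. The endoderm genes had it at no more than 3.87-fold. H3K4me3 was listed at 4 of 7 fibroblast and 6 of 6 endoderm genes in each experiment. In the rescue experiment H3K27me3 was listed at 3 of 8 stem cell, 7 of 7 fibroblast and 3 of 6 endoderm genes (59% of all genes). In the original experiment it was at 2 of 8, 5 of 7 and 1 of 6 (40.1%).

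The HoxD span, from the outer end of Evx2 to the outer end of Hoxd1, was 112154 bp long (mm10 chromosome 2, 74652989 to 74765142). Its genes have 11 annotated starts, and 300 bp of RefSeq promoter sequence (250 bases before and 50 after the start, GRCm38.p6) were found for each of them. Below are 4 of these promoters, chosen because they set the Hoxd4 start, where SUZ12 lists differed between the genotypes, beside its neighbour Hoxd3, beside a Hoxd11 start that is as poor in CpG, and beside the CpG-rich Hoxd13. Capitals mark each CpG, the letters CG, which read the same on both strands. At least 1 CG was found in 95.4% of all promoters of this length.
Hoxd4 promoter, chr2:74721728-74722027, plus strand: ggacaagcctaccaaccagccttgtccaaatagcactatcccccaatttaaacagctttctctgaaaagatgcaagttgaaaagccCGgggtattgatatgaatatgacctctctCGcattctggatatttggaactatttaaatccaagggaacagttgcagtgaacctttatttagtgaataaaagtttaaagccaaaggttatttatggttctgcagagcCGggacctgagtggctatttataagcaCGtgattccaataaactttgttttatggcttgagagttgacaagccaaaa
Hoxd3 promoter, chr2:74711743-74712042, plus strand: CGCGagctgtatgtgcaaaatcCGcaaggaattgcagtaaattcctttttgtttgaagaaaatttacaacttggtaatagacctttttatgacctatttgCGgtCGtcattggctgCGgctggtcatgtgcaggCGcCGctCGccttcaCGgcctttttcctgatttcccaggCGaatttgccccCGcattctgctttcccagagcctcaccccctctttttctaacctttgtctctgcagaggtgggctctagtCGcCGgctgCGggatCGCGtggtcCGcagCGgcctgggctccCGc
Hoxd11 promoter, first start, chr2:74679308-74679607, plus strand: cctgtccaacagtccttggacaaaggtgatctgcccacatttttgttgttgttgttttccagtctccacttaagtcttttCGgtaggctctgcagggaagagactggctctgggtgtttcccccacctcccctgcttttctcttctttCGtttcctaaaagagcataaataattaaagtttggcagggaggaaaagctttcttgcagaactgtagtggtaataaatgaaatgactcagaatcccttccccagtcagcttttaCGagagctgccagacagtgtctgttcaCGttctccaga
Hoxd13 promoter, chr2:74667975-74668274, plus strand: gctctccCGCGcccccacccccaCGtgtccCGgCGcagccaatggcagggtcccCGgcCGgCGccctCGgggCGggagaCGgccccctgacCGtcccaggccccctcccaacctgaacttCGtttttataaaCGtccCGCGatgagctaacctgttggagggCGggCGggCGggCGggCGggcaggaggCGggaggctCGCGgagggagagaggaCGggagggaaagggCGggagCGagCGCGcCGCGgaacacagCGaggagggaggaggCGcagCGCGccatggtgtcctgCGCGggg

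The Hoxd4 promoter held 4 CpG dinucleotides and 39.7% C+G, the lowest C+G of the 11 HoxD promoters. The first Hoxd11 start also held 4 CpG, at 45.7% C+G, and 28.4% of the 21263 promoters of protein-coding genes had as few. Hoxd8 held 6, Hoxd12 13, Evx2 16, Hoxd9 and Hoxd3 20 each, Hoxd10 22, the second Hoxd11 start 25, Hoxd1 29 and Hoxd13 37 CpG. The Hoxd13 count was at or above that of 93.5% of all promoters, and the median was 20 over the 11 HoxD promoters against 13 over all.

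A microRNA gene, Mir10b, lies inside Hoxd4, 4092 bp downstream of its start (chromosome 2, 74726070 to 74726137, plus strand). Its counterpart in the HoxB cluster is Mir10a. The 5' mature forms are shown because only the first of these genes lay in the stretch without a WT SUZ12 peak. Capitals mark the seed, bases 2 to 8, which the pair share.
mmu-miR-10b-5p: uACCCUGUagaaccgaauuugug
mmu-miR-10a-5p: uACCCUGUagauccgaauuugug

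SUZ12 was listed over most of the HoxD span in all 3 clones, and the clones differed in 1 long stretch. Peaks covered 93.8% of the span in MCM2-2A clone 439 and 89.7% in MCM2-2A clone 442, against 71.3% in WT clone 410. By base, 70.9% of the span was under a peak in all 3 lists, 18.5% (20787 bp) in the 2 MCM2-2A lists without WT, and 5.91% in none. No base of the span was under a peak in WT alone. SUZ12 lay in the windows of 10 of 10 genes in MCM2-2A clone 439, 10 of 10 in MCM2-2A clone 442 and 9 of 10 in WT, where 26.2%, 27.7% and 22.5% of all protein-coding genes had it in the same clones. The other 9 genes had it in all 3 lists (21.3% of all genes), and 0 had it in WT alone (0.256%). Hoxd4 was the 1 gene with SUZ12 in the lists of both mutant clones but not of WT. Over all genes this class took 3.08%, and since Hoxd4 was chosen for this pattern nothing is read from its count.

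**Figure D1:**
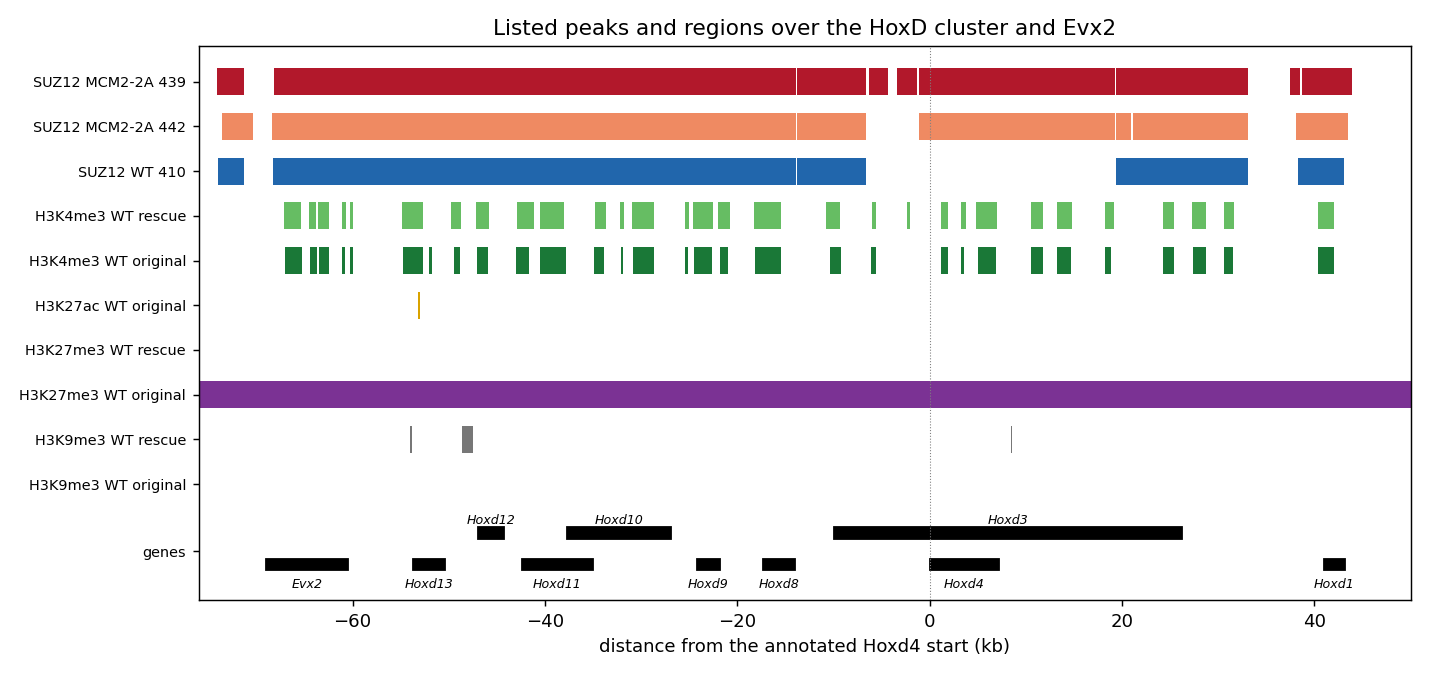
Map of the 10 lists over the HoxD cluster and Evx2, with distance from the annotated Hoxd4 start in kb on the x axis and 1 row per list. Boxes are listed peaks or regions (drawn at least 0.15 kb wide), the H3K27me3 region of the original experiment runs beyond both edges, and black boxes are gene bodies. Both MCM2-2A rows carry SUZ12 across the Hoxd4 start, where the WT row has a gap of 25966 bp.

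Evx2 and the genes from Hoxd13 to Hoxd8 shared a single SUZ12 peak of 54 kb in each clone, so their strengths are 1 value per list and not 7. Evx2 and Hoxd13 act in digit formation, Hoxd12, Hoxd11, Hoxd10 and Hoxd9 also pattern limb segments and the posterior axis, and Hoxd8 belongs to the central Hox genes. The shared peak was 54326 bp wide in MCM2-2A clone 439, 54454 bp in MCM2-2A clone 442 and 54383 bp in WT, and it was the second widest SUZ12 peak of each list. Its fold enrichment was 104.8 in MCM2-2A clone 439 (rank 31) and 62.2 in MCM2-2A clone 442 (rank 203), against 126.8 in WT (rank 10). The summit, the point of highest signal, lay 603 bp and 614 bp downstream of the Hoxd9 start in MCM2-2A clones 439 and 442 and 578 bp downstream in WT, a range of 36 bp. The peak ended within 12 bp of the same position in the 3 lists. Its edges and summit were thus placed alike in the 3 clones, while its strength was highest in WT and lowest in MCM2-2A clone 442. The lists as a whole had the same order. Their median folds were 13.4 in WT, 12.4 in clone 439 and 11.1 in clone 442, and their highest folds 165.8, 145.2 and 102.0. Whether the difference is particular to this peak was not tested.

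A further peak of about 7 kb covered the start of Hoxd3, a gene known for its role in the first cervical vertebrae. It had a fold enrichment of 70.1 in MCM2-2A clone 439 and 36.4 in MCM2-2A clone 442, against 65.4 in WT. The summits lay 123 bp, 79 bp and 118 bp downstream of the Hoxd3 start in MCM2-2A clone 439, MCM2-2A clone 442 and WT. The WT value lay between those of the mutant clones.

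Downstream of this peak the lists parted. The WT list held no SUZ12 peak over 25966 bp, starting 6619 bp upstream and ending 19346 bp downstream of the Hoxd4 start. Hoxd4, which helps to specify the cervical axis and the hindbrain, lies wholly within this gap, inside the long annotated body of Hoxd3. Both MCM2-2A lists held there a peak of nearly the same extent, from 74720857 to 74741235 (20379 bp) in clone 439 and from 74720877 to 74741230 (20354 bp) in clone 442. The starts of these peaks differed by 20 bp, their ends by 5 bp and their summits by 20 bp. They began 1121 bp and 1101 bp upstream of the Hoxd4 start and ended 12075 bp and 12070 bp beyond the Hoxd4 end in clones 439 and 442.

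The stretch was not a weak peak in either mutant list. Its fold enrichment was 58.2 in clone 439 (rank 574 of 7571, the top 7.58%) and 43.5 in clone 442 (rank 714 of 7840, the top 9.11%), against no listed peak in WT. Of the 1000 strongest peaks of each list, 7 of clone 439 (0.7%) and 7 of clone 442 (0.7%) overlapped no WT peak, and the stretch was among them in both. In the other direction, 0 of the 1000 strongest WT peaks lacked a peak in clone 439 and 0 lacked one in clone 442. An overlap of 1 bp was enough here, so a WT peak counted as matched where a mutant list lacked part of it. The WT list was also the shortest of the 3. By width, the stretch was the third of 944 sites held by both mutant lists and not by WT, whose median width was 1662 bp. All 3 of these measures come from the contrast that chose the genes and are given as a description.

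The right edge of the stretch was a short break between listed peaks. The mutant lists resumed after 87 bp in clone 439 and 132 bp in clone 442. The next WT peak began 89 bp after the end of the stretch in clone 439 and 94 bp after it in clone 442. The WT gap thus closed where a mutant peak also ended and the next began. In clone 439, 2 weak peaks (3.42-fold and 5.44-fold, ranks 7344 and 6604) filled part of the gap upstream of the stretch. The nearer of them ended with a break of 197 bp to the stretch. Clone 442 had a gap of 5487 bp upstream of the stretch. Whole stretches were also absent from a single list elsewhere. The longest stretch held by the other 2 SUZ12 lists was 16556 bp for those absent from clone 439, 13386 bp for clone 442 and 20929 bp for WT. The HoxD stretch, at 20354 bp, was the second longest of those absent from WT. Stretches of any length absent from clone 439, clone 442 and WT numbered 3375, 2706 and 6788, with median lengths of 94 bp, 84 bp and 179 bp. Of these, 2, 1 and 5 were at least 10 kb long. The one absent from clone 442 lay in HoxC, over Hoxc10. The SUZ12 lists hold only peaks that passed the authors' reproducibility filter, and the part of that filter in the missing WT peak was not tested.

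The distal part of the Hoxd3 body and Hoxd1, a gene needed for the wiring of pain-sensing neurons in mice, had SUZ12 in all clones. The distal Hoxd3 peak had a fold enrichment of 80.8 in MCM2-2A clone 439 (rank 194) and 74.8 in MCM2-2A clone 442 (rank 75), against 87.8 in WT (rank 172). In clone 442 a weak peak of 1588 bp (6.75-fold) stood apart at its start. Coverage of the Hoxd3 window, which takes in the Hoxd4 stretch, was 96.2% in MCM2-2A clone 439 and 86.0% in MCM2-2A clone 442, against 37.1% in WT. Hoxd1 had its strongest peak at 63.6-fold in MCM2-2A clone 439 and 47.5-fold in MCM2-2A clone 442, against 42.4-fold in WT. By the strongest peak of each gene, Hoxd1 was thus the 1 gene with a WT peak at which both mutant folds stood above the WT fold. Its ranks were 439 and 567 against 993. The weak peak beyond the Evx2 end had the same order, at 8.28-fold and 7.94-fold against 7.16-fold. Since most of the genes share 1 peak and the share over all genes was not counted, nothing is read from this count.

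**Figure D2:**
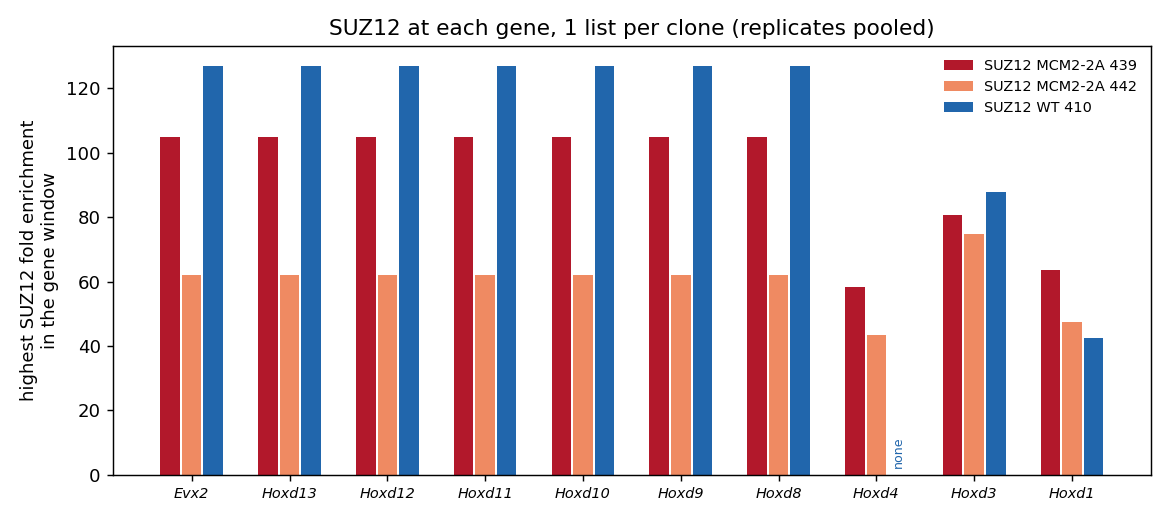
Highest SUZ12 fold enrichment (y axis) in the window of each gene (x axis, from Evx2 to Hoxd1), 1 bar per clone with MCM2-2A clones left of WT. The 7 genes from Evx2 to Hoxd8 share 1 peak and hence 1 height per clone, and Hoxd4 has bars of 58.2 and 43.5 in the mutant clones and none in WT.

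Other genes came close to this pattern in their SUZ12 values. Likeness was taken as the distance between log2 fold enrichments over the 3 lists, with 0 where no peak was listed. Closest to Hoxd4 were Nrp2 (72.7-fold in clone 439, 57.0-fold in clone 442 and no WT peak, distance 0.51), Cbx8 (84.8-fold, 49.2-fold and no WT peak, distance 0.57) and Nrn1 (39.4-fold, 37.6-fold and no WT peak, distance 0.60). Closest to Hoxd3, whose strongest peak lay outside the stretch, were Wnt7b, Gm2102 and Vgll2, at distances between 0.039 and 0.050. Strong SUZ12 in both mutant lists and none in WT was therefore not confined to Hoxd4.

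Against the other Hox clusters, the HoxD span had the highest share of bases listed in the mutant clones alone. Bases under both MCM2-2A lists and not under WT made up 18.5% of the HoxD span, against 3.46% in HoxA, 4.83% in HoxB and 0.495% in HoxC. The longest such run was 20354 bp in HoxD, against 4643 bp in HoxA, 5770 bp in HoxB and 309 bp in HoxC. The HoxD run is the stretch for which the cluster was chosen. The lead of HoxD in both measures follows from that choice and is given as a description. In HoxA, HoxB and HoxC, 0 of 31 genes had SUZ12 in the lists of both mutant clones but not of WT, a count near the 3.08% of all genes. The paralogues of the pair all had a WT peak. Hoxa3 and Hoxa4 shared a peak of 101.6-fold in clone 439, 85.9-fold in clone 442 and 83.9-fold in WT. Hoxb3 and Hoxb4 shared one of 100.3-fold, 97.1-fold and 116.7-fold, and Hoxc4 had 54.8-fold, 60.8-fold and 66.3-fold, in the same order of clones. Mir10a lay under the Hoxb3 and Hoxb4 peak in all 3 lists, whereas Mir10b lay under a peak in both MCM2-2A lists and none in WT. Hoxc10 showed the converse for 1 mutant clone, with 98.1-fold in clone 439, no peak in clone 442 and 64.3-fold in WT.

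**Figure D3:**
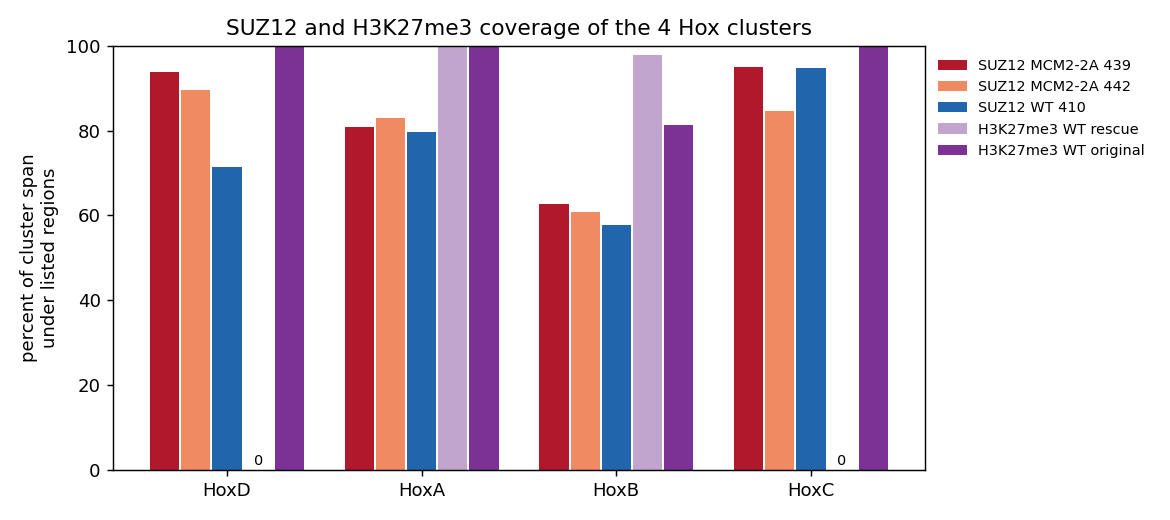
Percent of each Hox cluster span (y axis) under listed SUZ12 peaks in MCM2-2A clones 439 and 442 and WT clone 410, and under WT H3K27me3 regions of the rescue and original experiments, for the 4 clusters (x axis). SUZ12 coverage in HoxD is 93.8% and 89.7% in the MCM2-2A clones and 71.3% in WT, and the rescue H3K27me3 list is at 0 in HoxD and HoxC.

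H3K27me3, the product of PRC2, was listed over the whole cluster in 1 WT experiment and nowhere in it in the other. In the rescue list 0 of 10 genes had a region in the window, against 10 of 10 in the original list. Over all protein-coding genes the shares were 59% in the rescue list and 40.1% in the original list. The original list held a single region of 163741 bp over the whole cluster (74626120 to 74789860), which ranked 16 of 41869 by its strength value and 7 by width. The nearest rescue regions ended 24468 bp to the left of the span and began 139607 bp to the right of it. The same split was seen in HoxC, with 0 of 9 genes in the rescue list and 9 of 9 in the original list, while HoxA had 12 of 12 in both lists and HoxB 10 of 10 in the rescue list and 9 of 10 in the original list. Of the 1010 strongest original regions (1000 with ties), 213 (21.1%) had under 10% of their bases in the rescue list, so the HoxD region was 1 of many. Lists of the same clone thus differed over whole regions, and the cause was not tested. The WT SUZ12 gap lay wholly inside the original H3K27me3 region.

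H3K4me3 was listed at every gene in both experiments (10 of 10 genes in the rescue list and 10 of 10 in the original list, against 79.4% and 78.1% of all genes). The gene windows and the spaces between them held 30 peaks of the rescue list and 31 of the original list, and 29 and 30 of these overlapped a peak of the other list. Their folds lay between 3.72 and 51.0 (median 20.2) in the rescue list and between 3.29 and 58.5 (median 18.9) in the original list. The strongest lay between Hoxd13 and Hoxd12, at 51.0-fold in the rescue list and 58.5-fold in the original list. Evx2 reached 50.3-fold and 45.8-fold, Hoxd1 44.6-fold and 51.1-fold, Hoxd8 32.9-fold and 32.6-fold, and Hoxd10 44.6-fold and 31.3-fold in the rescue and original lists. Hoxd11 (27.7-fold and 25.0-fold) and Hoxd9 (26.9-fold and 29.0-fold) had the lowest values of the 10 genes in both lists.

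The WT SUZ12 gap was not empty of H3K4me3. It held 8 rescue peaks over 30.5% of its bases and 7 original peaks over 25.9%, close to the 34.1% and 30.7% of the whole span. The strongest peak inside Hoxd4 had a fold enrichment of 42.9 in the rescue list and 52.7 in the original list, with the summit 5341 bp and 5353 bp downstream of the Hoxd4 start. The summits of the mutant SUZ12 stretch lay 176 bp (clone 439) and 156 bp (clone 442) from this original H3K4me3 summit. Both therefore peaked in the same part of the Hoxd4 body and not at its annotated start.

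The 300 bp promoter at the Hoxd4 start, printed above, was the 1 HoxD promoter of 11 with no H3K4me3 peak in either experiment, where 68.6% of all promoters lay under a peak in the rescue list and 67.6% in the original list. The Evx2 promoter counted as under a peak through 8 bp in the rescue list and 1 bp in the original list. The next H3K4me3 peaks after the Hoxd4 start began 1179 bp (rescue) and 1187 bp (original) downstream. The first Hoxd11 start, with the same 4 CpG, lay under H3K4me3 in both lists. SUZ12 covered all 11 promoters in MCM2-2A clone 439 and all 11 in MCM2-2A clone 442, against 10 of 11 in WT, the exception again being Hoxd4 (18.8%, 20.1% and 16.1% of all promoters).

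Over the windows as a whole, the Hoxd4 stretch included, 6 of 9 SUZ12 summits in MCM2-2A clone 439, 6 of 7 in MCM2-2A clone 442 and 5 of 5 in WT lay within 500 bp of an H3K4me3 summit of the original list, where the shares over all peaks were 72.3%, 70.9% and 71.6%. Without the stretch the counts were 5 of 8 in clone 439 and 5 of 6 in clone 442. With so few peaks, nothing is read from the difference to these shares.

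**Figure D4:**
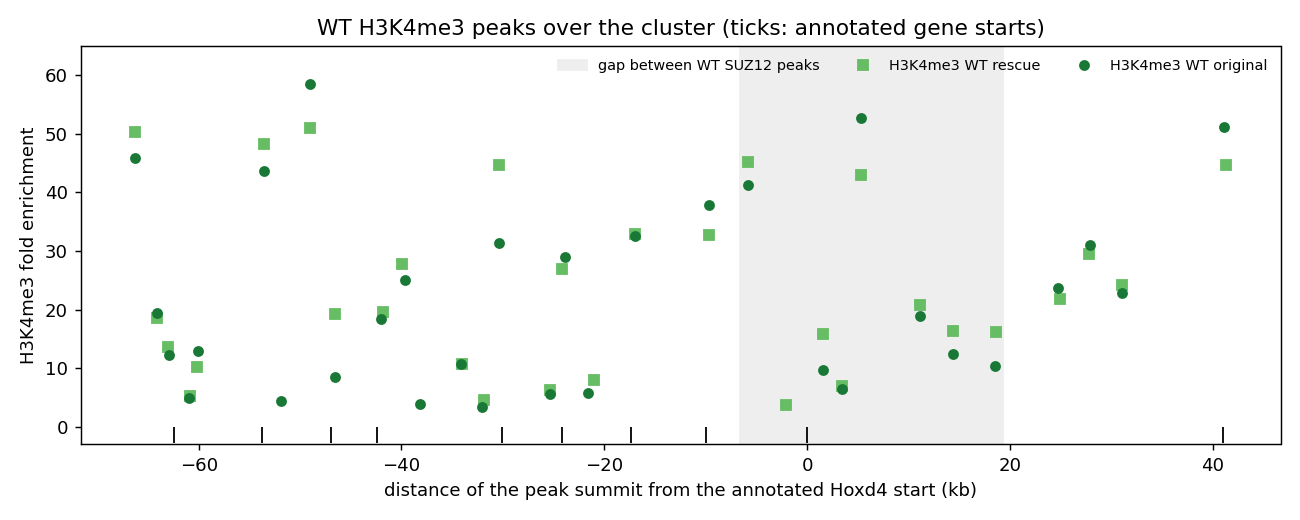
Fold enrichment of each WT H3K4me3 peak (y axis) against the distance of its summit from the annotated Hoxd4 start in kb (x axis), with squares for the rescue and circles for the original experiment. Ticks mark 1 annotated start per gene, and the grey band is the 25966 bp without a WT SUZ12 peak, which holds H3K4me3 peaks of up to 45.2-fold (rescue) and 52.7-fold (original).

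H3K27ac, found at promoters and enhancers that are active, was nearly absent from the list at these genes. A single peak of 261 bp lay in the body of Hoxd13, at 2.60-fold and rank 119673 of 128247, so 1 of 10 genes had the mark, against 66.1% of all genes. No HoxD promoter lay under an H3K27ac peak, where 41.2% of all promoters did. The other clusters had 5 of 12 (HoxA), 4 of 10 (HoxB) and 4 of 9 genes (HoxC) with H3K27ac, with folds of no more than 6.11.

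H3K9me3, the mark of constitutive heterochromatin, was listed at 4 of 10 genes in the rescue list and 0 of 10 in the original list, against 58.7% and 33.8% of all genes. The rescue regions were short. A region of 1241 bp lay between Hoxd13 and Hoxd12, one of 81 bp at the Hoxd13 start and one of 121 bp near the end of Hoxd4, within the windows of Hoxd4 and Hoxd3. Together they covered 1.29% of the span.

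The genes on either side of the cluster were without listed SUZ12. Mtx2 and Lnpk, the neighbours to the right and left, and Atf2, Atp5g3, Chn1, Hnrnpa3 and Nfe2l2 had no SUZ12 peak in any of the 3 lists, while 7 of 7 had H3K4me3 in both experiments and 7 of 7 had H3K27ac. Over all genes SUZ12 was listed at 22.5% to 27.7%, H3K4me3 at 78.1% to 79.4% and H3K27ac at 66.1%, so with 7 genes nothing is read from these counts. Mtx2 encodes a mitochondrial import protein and had H3K27ac at 7.47-fold, and Lnpk, a protein of the endoplasmic reticulum, had it at 8.05-fold. To the right of Hoxd1 the next SUZ12 peak stood 370956 bp away in MCM2-2A clone 439 and 371220 bp away in MCM2-2A clone 442, against 371246 bp in WT. To the left a weak peak beyond the 3' end of Evx2, at 8.28-fold, 7.94-fold and 7.16-fold in clone 439, clone 442 and WT, was the last within the windows.

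Among cofactors that bind DNA together with Hox proteins (the Pbx, Meis and Pknox genes), 5 of 9 had SUZ12 in each of the 3 lists, against 21.3% of all genes. In the lists of both mutant clones but not of WT it was found at 0 of 9, where 3.08% of all genes had this pattern. H3K27ac was listed at 8 of 9 cofactors, against 66.1% of all genes.

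The gene window decided the membership of only a few peaks. Just inside it was a clone 439 SUZ12 peak of 5.31-fold that reached 23 bp into the Hoxd1 window. Just outside was an H3K4me3 peak of 24.2-fold (rescue) and 22.8-fold (original), 1841 bp beyond the Hoxd3 window in the original list.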

How the data were processed

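Peak lists of native and crosslinked ChIP-seq with a Drosophila spike-in were used as the authors deposited them, 1 list per clone and mark with replicates combined. The authors' SUZ12, H3K4me3 and H3K27ac peaks carry a fold enrichment (a ratio) and a -log10 q-value, as deposited, and their H3K27me3 and H3K9me3 regions carry strength values, of which the last (a score of unknown scale) served to rank. Per the submitters' processing notes the build was mm10 and the tools were MACS2 2.1.0, Picard 2.20.7, BWA 0.7.15 and cutadapt 2.5. Settings of the caller were not given in the sources read. The SUZ12 lists had passed the authors' irreproducible discovery rate filter.

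Lists were intersected with RefSeq genes of GRCm38.p6 (the same build) in Python 3.11.15 with numpy 2.4.6 and pandas 2.3.3, an overlap of 1 bp counting, and positions count from 1. The overlap functions were tested on simulated intervals. The lists hold neither replicate values nor depths, so no test was run, no error can be given, and precision is unknown. All 10 genes were named. Other Hox clusters and cofactors were taken by counts, and paralogues and flanking genes by value. For Hoxd3 and Hoxd4, the 3 genes of nearest SUZ12 pattern were named. These members, lists and comparisons were chosen with earlier results of these data known. Alternatives were other windows, overlaps, peak strengths, lists and left-out clones, and the promoter window was added after seeing the data.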

Additional observations from a re-analysis of the deposited data

How the results depend on the processing

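Of 58 alternatives over 12 results, 54 gave a value within 1.5 times of the one reported. Hoxd4 was the gene with SUZ12 in the lists of both mutant clones but not of WT with the gene body alone, a window of 5000 bp, an overlap of at least 500 bp and the promoter window. The cluster was chosen for this stretch, and the WT gap reached beyond each of these windows. None of them could change the call, so nothing is read from it or from its part in the 54. The bases under the 2 MCM2-2A lists without WT lay between 19448 (WT peaks extended by 1000 bp) and 25480 (without MCM2-2A clone 442). With H3K27ac, 0 genes were left with an overlap of at least 500 bp and 0 above the median strength of the list. With the rescue list, H3K27me3 was at 0 genes and H3K9me3 at 4 genes, and the cause was not tested. No paired analysis was possible because the lists combine replicates and carry no replicate numbers. With no read depth, a gene without a listed peak cannot be said to lack the protein or mark.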

Other observations

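The cluster also holds 5 long non-coding RNA genes, none of which lies in the Hoxd4 stretch. Gm31790, between Evx2 and Hoxd13, was covered by SUZ12 over 100% of its length in both MCM2-2A clones and in WT, with H3K4me3 at 10.1-fold in the rescue list and 12.9-fold in the original list. Gm38462, which runs along Hoxd8 to the Hoxd3 start, was covered by SUZ12 over 99.0% and 98.5% in MCM2-2A clones 439 and 442 and 98.7% in WT. Hoxd3os1, at the Hoxd3 start, was covered over 94.9% and 87.8% in MCM2-2A clones 439 and 442 and 87.3% in WT. Haglr, between Hoxd3 and Hoxd1, was covered over 68.6% and 65.5% in MCM2-2A clones 439 and 442 and 63.4% in WT. The strongest H3K4me3 peak that touched it, at 44.6-fold in the rescue list and 51.1-fold in the original list, was the Hoxd1 peak. The summit of that peak lay beyond the Haglr end, inside Hoxd1, in both lists. Gm14424, inside Haglr, was covered over 100% in all 3 clones. No H3K27ac peak lay in any of the 5 genes. Mir10b was covered over 100% in both MCM2-2A clones and 0% in WT. It lies inside the stretch for which the cluster was chosen, and it is much shorter than any of the 5 genes. Its larger difference between the clones follows from that choice, so nothing is read from the contrast with the 5 genes.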
